A study of Mus musculus with 4 samples.

Results

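Chromatin remodellers are protein complexes built around an ATPase that slides, evicts or exchanges nucleosomes, and bromodomain proteins read acetylated histone tails that mark active chromatin. SWI/SNF, ISWI, CHD and INO80 are the main remodeller families, and most of their subunits exist as relatives that replace one another in alternative assemblies. In blood-forming tissue SWI/SNF and NuRD are known for roles in stem cell maintenance and lineage choice, and BET bromodomain proteins are studied as drug targets in leukaemia. The 61 genes described here were the entries of the deposited expression table, out of 28141, whose symbols start with Smarc, Arid, Ino80 or Brd and a digit, are Chd and a digit, or are one of 14 named subunits such as Pbrm1, Bptf, Mbd2, Mbd3 and Atrx. They were chosen by symbol, not by their values.

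The libraries held polyadenylated RNA of mouse leukaemia cells taken from bone marrow, called LSCs in the labels. The 2 Ybx1 cKO libraries came from cells in which Ybx1, encoding a Y-box protein with affinity for nucleic acids, had been knocked out conditionally, and the 2 WT libraries came from cells labelled wild type at this gene; all 4 share the strain C57BL/6 and carried the leukaemia. The title of the study names chronic myeloid leukaemia, while the oncogene, the Cre driver, the age of the mice and any pooling of animals are not stated in the labels. The comparison addresses how loss of Ybx1 alters transcript levels in leukaemia cells.

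Values are log2 levels, obtained from the deposited scores by a factor of 0.693 inferred from the noise between replicates, and the depth of the libraries is unknown because no counts were given. Ybx1 itself stood at 8.19 and 8.13 in cKO libraries, against 9.31 and 9.41 in WT libraries, a log2 fold change of -1.20 (SE 0.08, limma adjusted p = 1.1e-11). The labels do not say which exons are removed, and reads from retained exons would still count. Nothing in the labels said that replicates came from separate animals, so the spread behind each p-value is that between these libraries and may be technical. In bulk RNA, fewer cells of a type and less RNA per cell cannot be told apart. Of 10 listed markers of mature neutrophils 4 were tested, and these 4 rose. S100a8, S100a9, Ltf, Ngp, Camp and Retnlg were without a row. The log2 summed level of the neutrophil markers with a row was 13.70 to 13.71 in cKO libraries against 11.76 to 11.85 in WT libraries. Of the monocyte and macrophage markers 5 of 6 tested rose (16.97 to 16.98 in cKO libraries, 16.18 to 16.19 in WT libraries). Of the stem and progenitor markers 3 of 6 tested fell and 0 rose (11.87 to 11.92 in cKO libraries, 12.41 to 12.45 in WT libraries), and Kit, Cd34, Meis1 and Hlf were without a row. T and NK cell markers were represented by 2 tested genes, both of which fell (9.50 to 9.59 in cKO libraries, 10.57 in both WT libraries). Of 4 tested erythroid markers 3 fell, and the 1 tested B cell marker rose. Beside these marker counts, 19.5% of all tested genes were called higher and 17.8% lower. The part of cell composition in the changes given here was not tested.

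Of the 61 remodeller genes 58 reached the level needed for the test, and 3, the pseudogenes Smarca5-ps and Smarce1-ps1 and the small gene Brd3os, lay below it. Together 23 of the 58 changed at a limma adjusted p under 0.05, 12 higher and 11 lower in cKO. That is 39.7% of them, where 37.4% of all 15527 tested genes were called, so the share is near the background. The split by direction was near it too, with 20.7% higher against 19.5% of all genes and 19.0% lower against 17.8%. The median log2 fold change was 0.07 for the remodellers and 0.00 for all tested genes, and the median size of a change was 0.24 and 0.32. Called changes were small, between 0.17 and 0.83 in size on the log2 scale. After a shift of each library to a common median, the split of called remodellers was 16 higher and 8 lower. With that shift 3626 of all 15527 tested genes were called higher and 2358 lower, so the background leaned the same way. With 1 common prior variance for genes of all levels, 8 remodellers were called in place of 23, and 7 of the 23 kept their call, among them Smarca4, Smarcc2, Atrx, Baz1b, Baz2b and Brd7. The calls lost with it included Mbd2, Pbrm1, Brd2, Ep400 and Arid1a (limma adjusted p = 0.052, 0.062, 0.065, 0.051 and 0.10).

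Whether a gene could be called depended on its level. At a mean log2 level of 7 or more, a division chosen after the values were seen, 23 of 40 remodellers (57.5%) were called, beside 61.4% of all tested genes at such levels. Below it 0 of 18 remodellers and 15.6% of all genes were called by limma. The median SE was 0.21 for the 18 and 0.07 for the 40, so a change as small as that of Pbrm1 would not be detectable for Arid2 at this precision. The cKO and WT libraries did not overlap for 43 of the 58 remodellers (74.1%), beside 65.1% of all tested genes, and 20 of these 43 did not pass the test.

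**Figure D1:**
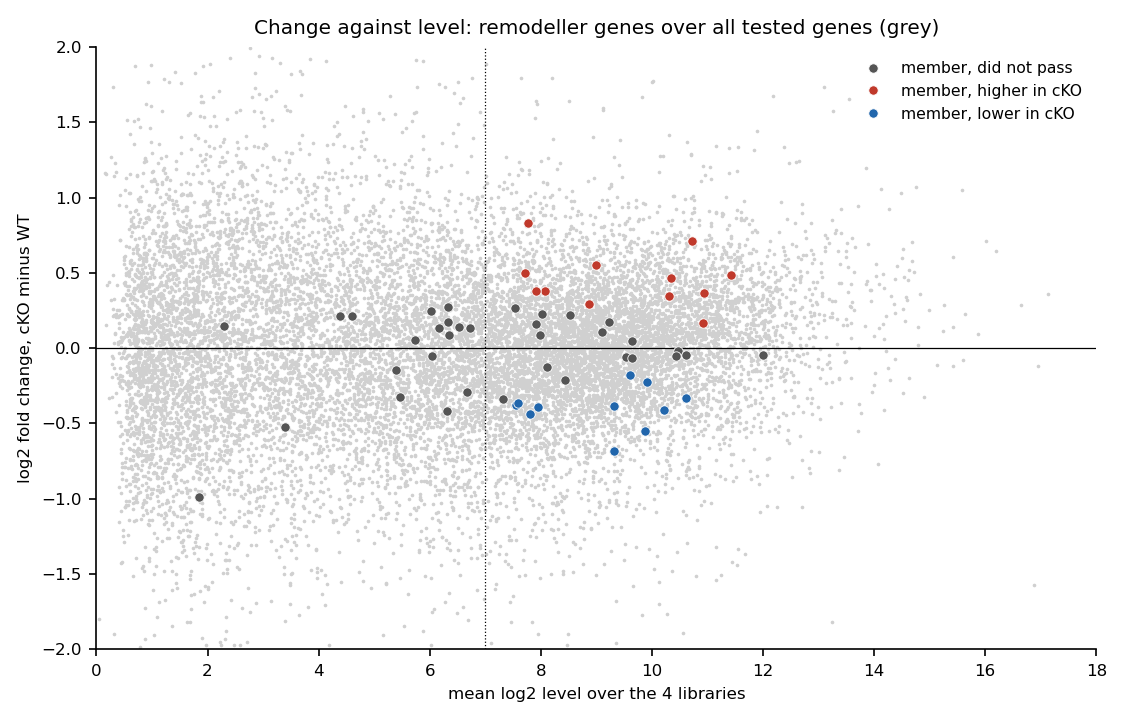
Log2 fold change (Ybx1 cKO minus WT, vertical axis) against the mean log2 level over the 4 libraries (horizontal axis) for 58 remodeller genes, coloured by call, over all tested genes in grey; 49 of 15527 genes lie outside the axes. The called remodellers all sit to the right of the dotted line at a level of 7, and they lie inside the cloud of all genes.

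SWI/SNF complexes contain 1 of the ATPases Smarca4 and Smarca2, a core of shared subunits, and subunits that mark a canonical, a polybromo-containing or a non-canonical assembly. Among the 10 catalytic and core subunits 2 fell, Smarca4 and Smarcc2, 0 rose and 8 did not pass. Called lower were 17.8% of all tested genes and called higher 19.5%, so 2 falls in 10 are near the background. Smarca4, the main ATPase, lay at 10.03 and 9.997 in cKO libraries, against 10.43 and 10.42 in WT libraries. The groups were clear of each other, and the fall was 1.33-fold (log2 fold change -0.41, SE 0.05, limma adjusted p = 4.6e-07). Smarcc2, a scaffold subunit, lay at 9.05 and 8.90 in cKO libraries, against 9.71 and 9.60 in WT libraries. It had the largest fall among the 23 called remodellers, 1.61-fold (log2 fold change -0.68, SE 0.07, limma adjusted p = 2.8e-08).

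Unlike Smarcc2, the core subunits Smarcb1, Smarce1 and Actl6a differed little between the groups. Smarcb1, the core subunit that contacts the nucleosome, was at 10.44 and 10.46 in cKO libraries, against 10.50 and 10.44 in WT libraries, and the groups overlapped. Its log2 fold change was -0.02, with a 95% interval from -0.12 to 0.08. Smarce1, the subunit with an HMG box, and Actl6a, an actin-related subunit, each had a log2 fold change of -0.05, with intervals of -0.14 to 0.05 and -0.15 to 0.05. For these 3 genes the intervals leave out a change as large as that of Smarca4. Smarca2, the alternative ATPase, was at 9.23 and 9.07 in cKO libraries and 9.12 and 8.97 in WT libraries (log2 fold change 0.11, limma adjusted p = 0.32). Smarcc1, the relative of Smarcc2, had -0.13, with an interval of -0.33 to 0.08. The 3 alternative subunits Smarcd1, Smarcd2 and Smarcd3 had mean log2 levels of 6.02, 5.39 and 3.40, not divided by length, and their intervals ran from -1.36 to 0.66. Smarcd2, which in mice is known for a role in granulocyte formation, was at 5.64 and 4.99 in cKO libraries and 4.97 and 5.95 in WT libraries, so the cKO libraries lay within the range of the WT libraries. Smarcd3 shares 48.2% of its exon length with Chpf2 on the opposite strand, and without known strandedness their reads may not be told apart.

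Of 6 subunits that mark one assembly Brd7, Pbrm1 and Arid1a rose, 0 fell, and Arid1b, Brd9 and Arid2 did not pass. These counts stand beside 19.5% called higher and 17.8% called lower of all tested genes, and the difference was not tested. Pbrm1, the polybromo subunit with a row of bromodomains, was at 11.14 and 11.10 in cKO libraries, against 10.71 and 10.80 in WT libraries (log2 fold change 0.36, SE 0.04, limma adjusted p = 2.8e-07). Brd7, a bromodomain subunit of the same assembly, was at 10.58 and 10.56 in cKO libraries, against 10.14 and 10.06 in WT libraries (log2 fold change 0.47, SE 0.05, limma adjusted p = 5.2e-08). Neither gene had overlapping groups. Arid2, the ARID subunit of that assembly, did not share the rise. It stood at 6.10 and 6.09 in cKO libraries, against 6.55 and 6.49 in WT libraries, with a log2 fold change of -0.42 (limma adjusted p = 0.075) that passed in 1 of 13 alternatives, the common prior variance (adjusted p = 0.048, range 0.048 to 0.29). Arid1a, which marks the canonical assembly, rose by 0.29 (SE 0.08, limma adjusted p = 0.0047), and its relative Arid1b had 0.13 with an interval of -0.21 to 0.47. Brd9, the bromodomain subunit of the non-canonical assembly, had 0.22 (limma adjusted p = 0.062) and passed as a rise under 6 of 13 alternatives, with adjusted p from 0.010 to 0.43 over all of them.

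Promoters are shown for 4 SWI/SNF genes, the 2 called rises and the 2 called falls with the smallest p-values among the genes chosen by symbol, because members of the same complex moved in opposite directions. They run from 250 bases before to 50 after the start site, on the gene's strand, from RefSeq on GRCm38.p6, with capitals for the matches of 4 short motifs on either strand: CCAAT, the core of the Y-box element, CACGTG, the E-box, CGGAAG, an ETS core, and GGGCGG, the GC box. Pbrm1 is on the plus strand at chr14:31018888-31019187, Brd7 on the minus strand at chr8:88362123-88362422, Smarca4 on the plus strand at chr9:21615919-21616218 and Smarcc2 on the plus strand at chr10:128458986-128459285.
Pbrm1, rose: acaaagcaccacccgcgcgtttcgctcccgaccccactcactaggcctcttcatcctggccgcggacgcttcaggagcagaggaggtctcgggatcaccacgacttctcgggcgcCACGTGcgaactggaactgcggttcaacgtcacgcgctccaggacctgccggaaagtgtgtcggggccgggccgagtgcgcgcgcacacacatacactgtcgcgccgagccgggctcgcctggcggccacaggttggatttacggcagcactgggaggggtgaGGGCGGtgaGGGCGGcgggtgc
Brd7, rose: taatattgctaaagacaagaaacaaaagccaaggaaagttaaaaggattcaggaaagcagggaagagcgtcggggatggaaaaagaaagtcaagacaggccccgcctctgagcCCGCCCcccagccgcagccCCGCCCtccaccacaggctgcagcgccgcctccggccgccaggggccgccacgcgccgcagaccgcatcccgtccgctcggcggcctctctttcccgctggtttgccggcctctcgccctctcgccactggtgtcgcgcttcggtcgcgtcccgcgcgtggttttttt
Smarca4, fell: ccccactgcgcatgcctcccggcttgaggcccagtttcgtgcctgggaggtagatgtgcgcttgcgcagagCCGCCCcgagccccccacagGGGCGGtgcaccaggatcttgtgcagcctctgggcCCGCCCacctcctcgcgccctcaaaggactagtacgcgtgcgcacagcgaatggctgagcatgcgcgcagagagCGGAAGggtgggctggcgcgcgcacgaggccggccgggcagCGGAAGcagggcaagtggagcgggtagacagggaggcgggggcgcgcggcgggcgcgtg
Smarcc2, fell: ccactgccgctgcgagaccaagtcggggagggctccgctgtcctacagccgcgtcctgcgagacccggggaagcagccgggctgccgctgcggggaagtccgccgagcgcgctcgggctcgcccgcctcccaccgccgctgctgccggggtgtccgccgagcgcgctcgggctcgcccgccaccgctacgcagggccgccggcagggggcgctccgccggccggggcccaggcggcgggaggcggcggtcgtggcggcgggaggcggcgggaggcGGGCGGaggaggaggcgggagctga
No matches overlapped in these windows. The sequence CCAAT was in 0 of the 4 windows, while each held the GC box at least once (2 in Pbrm1, 2 in Brd7, 3 in Smarca4 and 1 in Smarcc2). The E-box was in that of Pbrm1 only, and the ETS core was found 2 times in that of Smarca4 only. Promoters were found for 44 of the 61 genes, in 55 windows. CCAAT was in 27.3% of these windows, against 37.8% of the windows of tested genes and 37.4% of all 32851 mouse promoter windows. The GC box was in 80.0%, against 58.0% for tested genes and 35.7% for all promoters. By call, CCAAT was in 3 of 9 windows of genes that rose, 4 of 14 of genes that fell and 8 of 31 of genes that did not pass. These windows came from 7 of 12 genes that rose, 10 of 11 that fell and 26 of 35 that did not pass. Some genes had more than 1 window. The median G and C content of the 55 windows was 65.7%, against 59.7% for tested genes and 52.7% for all promoters. A match is a run of letters and says nothing here of binding.

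**Figure D2:**
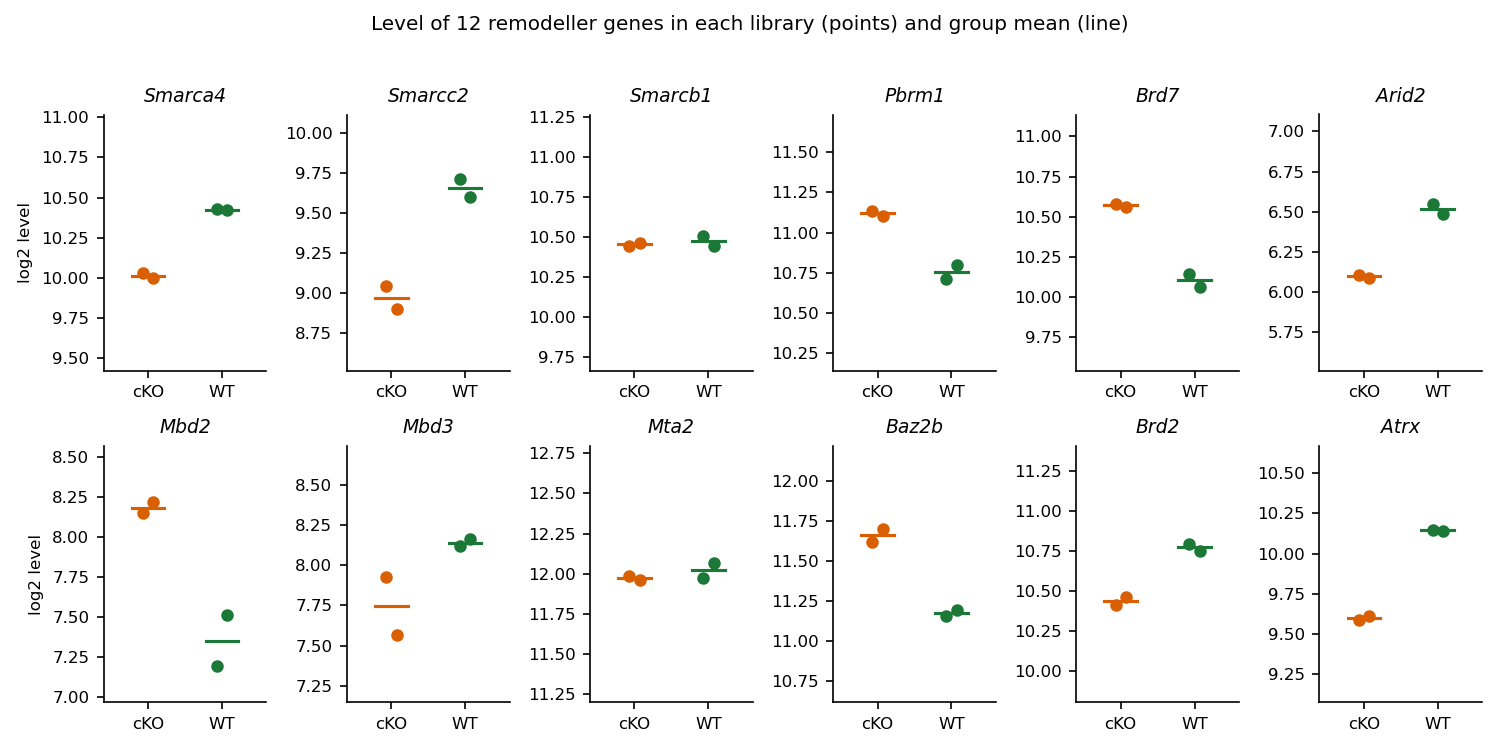
Log2 level of 12 remodeller genes in each library, with cKO libraries left of WT libraries, points for libraries and a line for the group mean; all panels span the same log2 range. Smarca4, Smarcc2, Brd2 and Atrx lie lower in both cKO libraries, Pbrm1, Brd7, Mbd2 and Baz2b lie higher, and Smarcb1 and Mta2 overlap.

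To compare abundance between genes, levels were divided by annotated exon length and given as ppm of the library's length-scaled sum. Division by that sum shifts cKO against WT libraries, so group differences in ppm do not equal the fitted fold changes. On this length-scaled level (ppm) Smarca4 averaged 37.8 in cKO libraries and 53.3 in WT libraries, and Smarca2 averaged 9.46 in cKO libraries and 9.30 in WT libraries, so Smarca4 was the more abundant ATPase in both. Smarcc2 averaged 21.5 in cKO libraries and 36.5 in WT libraries, beside 8.05 in cKO libraries and 9.31 in WT libraries for Smarcc1. Arid1a averaged 10.7 in cKO libraries and 9.30 in WT libraries, beside 2.104 and 2.03 for Arid1b. In the polybromo assembly Pbrm1 averaged 59.6 in cKO libraries and 49.1 in WT libraries and Brd7 68.7 and 52.7, while Arid2 averaged 1.51 and 2.14. Exon lengths were unions over all annotated transcripts, which can overstate the length in use.

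ISWI complexes pair the ATPase Smarca5 with a large partner that sets their task. Of the 6 genes with a row, Baz2b and Bptf rose, Smarca5 and Baz1b fell, and Baz1a and Baz2a did not pass. The shares of all tested genes were 19.5% called higher and 17.8% called lower. Smarca1 was without a row. Baz2b, a bromodomain partner, was at 11.62 and 11.70 in cKO libraries, against 11.15 and 11.20 in WT libraries (log2 fold change 0.48, SE 0.04, limma adjusted p = 4e-10). Baz1b, the Williams syndrome transcription factor gene, was at 7.58 and 7.58 in cKO libraries, against 7.997 and 8.03 in WT libraries (log2 fold change -0.43, SE 0.11, limma adjusted p = 0.0024). Both genes had groups that did not overlap. Bptf, the large subunit of the NURF complex, was at 8.21 and 8.002 in cKO libraries, against 7.69 and 7.76 in WT libraries (log2 fold change 0.38, SE 0.11, limma adjusted p = 0.0073). Leaving out WT replicate 1 ended the call (adjusted p = 0.051), as did leaving out cKO replicate 1 (adjusted p = 0.080). Smarca5, the ATPase, was at 7.49 and 7.25 in cKO libraries, against 7.61 and 7.89 in WT libraries (log2 fold change -0.38, SE 0.13, limma adjusted p = 0.024). That call ended when WT replicate 2 was left out, at a log2 fold change of -0.24 (adjusted p = 0.34), when cKO replicate 2 was left out (-0.26, adjusted p = 0.13), under quantile normalization (adjusted p = 0.065) and after a median shift (adjusted p = 0.055).

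NuRD joins nucleosome remodelling by a CHD ATPase with histone deacetylation, and contains either Mbd2, which binds methylated CpG sites, or Mbd3, which in mammals largely lacks that binding. Mbd2 rose and Mbd3 fell. Mbd2 was at 8.15 and 8.22 in cKO libraries, against 7.19 and 7.51 in WT libraries, and had the largest rise among the called remodellers, 1.78-fold (log2 fold change 0.83, SE 0.12, limma adjusted p = 3.9e-06). Mbd3 was at 7.93 and 7.57 in cKO libraries, against 8.12 and 8.16 in WT libraries (log2 fold change -0.39, SE 0.12, limma adjusted p = 0.0089). Groups did not overlap for either gene, but the cKO libraries differed by more in Mbd3 than its WT libraries, and its call ended when cKO replicate 2 was left out, with a log2 fold change of -0.21 (adjusted p = 0.15).

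The other 5 NuRD genes did not pass. Chd4, the main ATPase, was at 9.35 and 9.27 in cKO libraries, against 9.13 and 9.14 in WT libraries (log2 fold change 0.17, limma adjusted p = 0.058), and it passed under 4 of 13 alternatives, with adjusted p = 0.0083 after a median shift. Mta2, which binds the deacetylases, had the highest length-scaled level of the 60 genes with an annotated entry, 232.5 in cKO libraries and 255.1 in WT libraries. Its log2 level was 11.99 and 11.96 in cKO libraries and 11.97 and 12.07 in WT libraries, a log2 fold change of -0.05 with an interval of -0.12 to 0.03, but under quantile normalization it passed as a fall of 0.16 on the log2 scale (adjusted p = 0.0015). Chd3 had 0.16 with an interval of -0.06 to 0.38, and Mta1 had -0.32 with one of -0.84 to 0.19. Chd5, a CHD gene known mainly from neurons and testis, lay at 1.26 and 1.43 in cKO libraries and 2.06 and 2.61 in WT libraries, close to the level needed for the test (log2 fold change -0.99, limma adjusted p = 0.12).

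**Figure D3:**
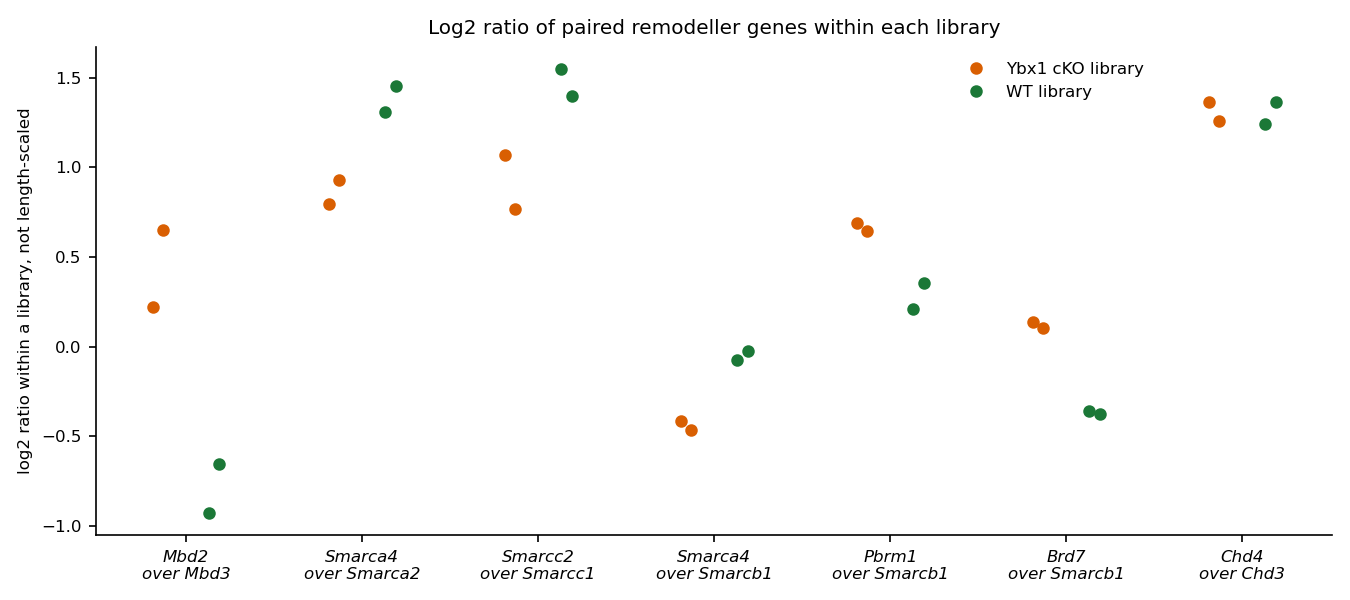
Log2 ratio of the levels of paired genes within each library (vertical axis), with cKO libraries left of WT libraries for each pair. Levels are not divided by gene length, so the ratios show differences between libraries and not which gene of a pair is more abundant. The ratio of Mbd2 to Mbd3 and that of Brd7 to Smarcb1 lie higher in cKO libraries than in WT libraries with no overlap, while that of Chd4 to Chd3 overlaps.

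Ratios of related genes within a library are unchanged by a shift of whole libraries, though not by quantile normalization, and are taken here from levels not divided by length, so that only their differences between libraries are read. They are given as values without a test, because 15 pairs were chosen after the values were seen and an exact permutation test of 2 against 2 libraries cannot go below 0.333. The log2 ratio of Mbd2 to Mbd3 was 0.22 and 0.65 in cKO libraries, against -0.93 and -0.65 in WT libraries. That of Smarca4 to Smarca2 was 0.80 and 0.93 in cKO libraries, against 1.31 and 1.45 in WT libraries. The log2 ratio of Smarcc2 to Smarcc1 was 1.07 and 0.77 in cKO libraries, against 1.55 and 1.401 in WT libraries. Each of these 3 ratios kept the groups apart. Relative to the core subunit Smarcb1, Pbrm1 was at 0.69 and 0.64 in cKO libraries, against 0.21 and 0.35 in WT libraries, and Smarca4 was at -0.42 and -0.46 in cKO libraries, against -0.08 and -0.02 in WT libraries. The log2 ratio of Chd4 to Chd3 was 1.37 and 1.26 in cKO libraries and 1.24 and 1.36 in WT libraries, with overlapping groups. So was that of Baz1b to Baz1a, at 1.22 and 0.90 in cKO libraries and 1.08 and 1.32 in WT libraries.

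BET proteins bind acetylated histones at promoters and enhancers, and 2 of them, Brd2 and Brd3, are described here beside Brd1, a scaffold of a histone acetyltransferase complex. Brd2, at chr17:34112023-34122634 in GRCm38, was at 10.41 and 10.46 in cKO libraries, against 10.79 and 10.75 in WT libraries. The groups did not overlap, and the fall was 1.26-fold (log2 fold change -0.34, SE 0.05, limma adjusted p = 2.6e-06). Brd2 shares 4.60% of its exon length with H2-DMa on the opposite strand. Brd3 was at 9.59 and 9.41 in cKO libraries and 9.53 and 9.59 in WT libraries, with overlapping groups (log2 fold change -0.06, interval -0.20 to 0.08). On the length-scaled level Brd2 averaged 42.0 in cKO libraries and 56.1 in WT libraries, and Brd3 averaged 23.4 in cKO libraries and 25.8 in WT libraries. Brd1 had a log2 fold change of 0.09 with an interval of -0.29 to 0.47.

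**Figure D4:**
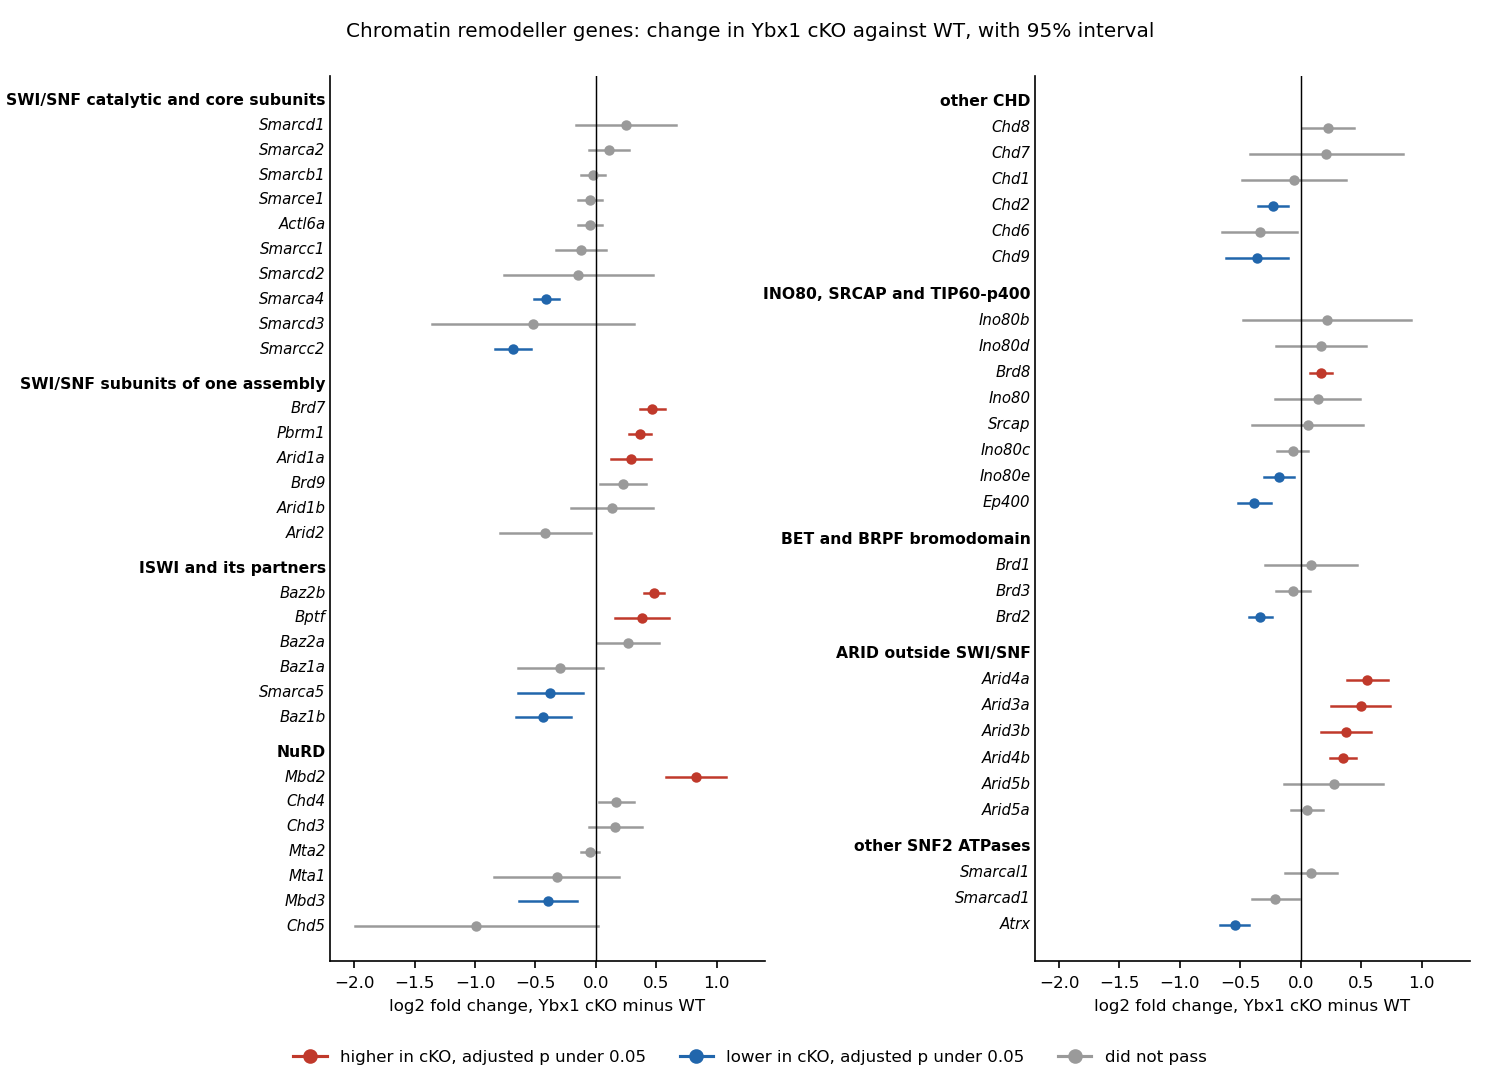
Log2 fold change (Ybx1 cKO minus WT) of 55 remodeller genes in 9 role groups, with the 95% interval from limma's moderated variance; red and blue mark genes past an adjusted p of 0.05. Rises and falls occur side by side in SWI/SNF, ISWI and NuRD genes, and the widest intervals belong to genes of low level such as Chd5 and Smarcd3.

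The ARID genes outside SWI/SNF were higher or did not pass. Arid3a, Arid3b, Arid4a and Arid4b rose, Arid5a and Arid5b did not pass, and 0 of the 6 fell, while Arid3c was without a row. Among all tested genes 19.5% were called higher and 17.8% lower. Arid4a, which binds retinoblastoma protein and belongs to a Sin3 deacetylase complex, was at 9.28 and 9.27 in cKO libraries, against 8.84 and 8.61 in WT libraries (log2 fold change 0.55, SE 0.08, limma adjusted p = 4.6e-06). Its relative Arid4b was at 10.51 and 10.45 in cKO libraries, against 10.11 and 10.15 in WT libraries (log2 fold change 0.35, SE 0.05, limma adjusted p = 4.6e-06). In both the groups were separate. Arid3a, a transcription factor of blood cells, was at 7.87 and 8.04 in cKO libraries, against 7.56 and 7.36 in WT libraries (log2 fold change 0.50, SE 0.12, limma adjusted p = 0.0015), and its relative Arid3b rose by 0.38 (SE 0.10, limma adjusted p = 0.0043). Arid5a, an RNA-binding regulator of cytokine transcripts, had 0.05 with an interval of -0.08 to 0.18. With a common prior variance these 4 calls were lost, at adjusted p = 0.084 for Arid3a, 0.072 for Arid3b and 0.062 for Arid4a and Arid4b.

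INO80 and SRCAP exchange histone H2A variants, and the TIP60-p400 complex adds histone acetylation to that exchange. Of 8 genes 1 rose, 2 fell and 5 did not pass, beside 19.5% called higher and 17.8% called lower of all tested genes. Ep400, the ATPase of the TIP60-p400 complex, was at 9.14 and 9.11 in cKO libraries, against 9.50 and 9.52 in WT libraries (log2 fold change -0.38, SE 0.07, limma adjusted p = 4.7e-05). Brd8, a bromodomain subunit of the same complex, was at 11.03 and 10.96 in cKO libraries, against 10.86 and 10.80 in WT libraries (log2 fold change 0.17, SE 0.04, limma adjusted p = 0.0037). Both genes had separate groups, but the call of Brd8 was lost under quantile normalization (log2 fold change 0.08, adjusted p = 0.16) and without WT replicate 2 (adjusted p = 0.054). Ino80e had a log2 fold change of -0.18 (SE 0.06) at a limma adjusted p of 0.023. Its call ended when either WT library was left out (adjusted p of 0.056 and 0.18) and after a median shift (0.15), and 14.4% of its exon length overlaps Doc2a on the opposite strand. Ino80, the ATPase, was at 6.53 and 6.66 in cKO libraries and 6.39 and 6.52 in WT libraries (log2 fold change 0.14, limma adjusted p = 0.58). Srcap, an ATPase that loads H2A.Z, was at 5.89 and 5.64 in cKO libraries and 5.79 and 5.63 in WT libraries (log2 fold change 0.06, limma adjusted p = 0.88), and 61.7% of its exon length is shared with the model Gm42715 on the same strand. Ino80b, Ino80c and Ino80d had log2 fold changes from -0.07 to 0.22.

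Of the other CHD genes Chd2 and Chd9 fell and Chd1, Chd6, Chd7 and Chd8 did not pass, beside 17.8% called lower of all tested genes. Chd2, a remodeller linked to transcribed chromatin, was at 9.85 and 9.73 in cKO libraries, against 9.98 and 10.06 in WT libraries (log2 fold change -0.23, SE 0.06, limma adjusted p = 0.0036), with 18.4% of its exon length shared with 1810026B05Rik on the same strand. Without WT replicate 2 its adjusted p was 0.058. Chd9 was at 7.30 and 7.51 in cKO libraries, against 7.85 and 7.69 in WT libraries (log2 fold change -0.36, SE 0.12, limma adjusted p = 0.023), and the call ended when replicate 1 of WT (adjusted p = 0.22) or of cKO (adjusted p = 0.13) was left out, under quantile normalization (adjusted p = 0.068) and after a median shift (adjusted p = 0.053). Chd6, with a log2 fold change of -0.34 (limma adjusted p = 0.077), passed without cKO replicate 1, at -0.59 (adjusted p = 6e-04), whereas without cKO replicate 2 it was at -0.10 (adjusted p = 0.66). Chd8, a repressor of Wnt target genes, had 0.22 (limma adjusted p = 0.10), and Chd7, the gene of CHARGE syndrome in humans, had 0.21 with an interval of -0.42 to 0.84.

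Among the other ATPases, Atrx, which with Daxx places histone H3.3 at repeats and telomeres, was lower in cKO. It was at 9.59 and 9.61 in cKO libraries, against 10.15 and 10.14 in WT libraries (log2 fold change -0.55, SE 0.06, limma adjusted p = 2.1e-08), with the groups far apart. Its partner Daxx had a log2 fold change of 0.12 (limma adjusted p = 0.089). Smarcad1, which helps to maintain heterochromatin through replication, had -0.21 (limma adjusted p = 0.081) and was at -0.30 without cKO replicate 1 (adjusted p = 0.014) but at -0.12 without cKO replicate 2 (adjusted p = 0.39). Smarcal1, which anneals DNA at stalled forks, had 0.09 with an interval of -0.13 to 0.30. The antisense RNA Ino80dos and the gene Brd8dc were tested and did not pass (limma adjusted p = 0.66 and 0.85).

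Further subunits and relatives, listed by role but with earlier results of these data known, fell more often than they rose. Of 75 such genes 74 had a row and 73 were tested, of which 9 rose and 27 fell by limma, 12.3% and 37.0%, beside 19.5% and 17.8% of all tested genes. After a median shift the split was 15 higher and 24 lower, beside 3626 higher and 2358 lower among all 15527 tested genes. Their median log2 fold change was -0.15, against 0.00 for all tested genes. These shares are a description and were not tested. In SWI/SNF 3 of 12 rose and 5 fell: Ss18, a subunit of the canonical and non-canonical assemblies, had -0.49 (SE 0.05, limma adjusted p = 1.1e-08) and Bcl7a -0.63 (SE 0.14, limma adjusted p = 0.0010), whereas Actb, the actin subunit and a cytoskeletal gene, rose by 0.29 (SE 0.01, limma adjusted p = 9.5e-15). Phf10, a further subunit of the polybromo assembly, also fell, with a log2 fold change of -0.99 (SE 0.33, limma adjusted p = 0.020), and is named after its value was seen. Ss18l1, the relative of Ss18, rose by 0.647 (SE 0.165, limma adjusted p = 0.0028) and is likewise named after its value was seen.

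In NuRD 1 of 8 partners rose and 4 fell, and in ISWI 0 of 6 rose and 3 fell, beside 19.5% called higher and 17.8% lower among all tested genes. The histone-binding subunits Rbbp4 and Rbbp7, counted in both lists, were among the falls (log2 fold changes -0.28, SE 0.05, and -0.46, SE 0.03). Gatad2a, a NuRD scaffold, rose by 0.43 (SE 0.07, limma adjusted p = 4.5e-05), whereas its relative Gatad2b fell, with -0.34 (SE 0.08, limma adjusted p = 8.9e-04). Chrac1, a histone-fold subunit of an ISWI complex, had -0.28 (SE 0.05, limma adjusted p = 2.4e-04). Among 24 partners in INO80, SRCAP and TIP60 complexes 3 rose and 7 fell. Trrap, the scaffold of TIP60 and SAGA-type acetyltransferases, was at 10.81 and 10.78 in cKO libraries, against 9.92 and 9.96 in WT libraries (log2 fold change 0.85, SE 0.05, limma adjusted p = 7.1e-13). Morf4l1, a chromodomain subunit, rose by 0.46 (SE 0.03, limma adjusted p = 2.5e-12), whereas its relative Morf4l2 fell, with -0.44 (SE 0.04, limma adjusted p = 9.2e-09). Gatad2b and Morf4l2 are named after their values were seen. The helicase Ruvbl2, shared by these complexes, was at 10.94 and 10.96 in cKO libraries, against 11.45 and 11.35 in WT libraries (log2 fold change -0.45, SE 0.04, limma adjusted p = 4.8e-09).

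Of 12 other SNF2-type ATPases and partners 7 fell and 0 rose, with a median log2 fold change of -0.62. Of all tested genes 17.8% were called lower and 19.5% higher, and the difference from these shares was not tested. Hells, a remodeller needed for DNA methylation at repeats, was at 9.30 and 9.35 in cKO libraries, against 10.36 and 10.41 in WT libraries (log2 fold change -1.06, SE 0.06, limma adjusted p = 2e-13). Rad54l, the recombination motor, had -0.82 (SE 0.08, limma adjusted p = 6.2e-09), and Chd1l, which acts in the response to DNA breaks, had -0.73 (SE 0.08, limma adjusted p = 3.8e-08). Of 13 other bromodomain genes 2 rose and 3 fell: Trim33 rose by 0.63 (SE 0.07, limma adjusted p = 1.6e-07), and Atad2, a chromatin ATPase of dividing cells, and Zmynd11, a reader of methylated H3.3, had -0.72 (SE 0.11, limma adjusted p = 4.6e-06) and -0.46 (SE 0.11, limma adjusted p = 0.0023).

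**Figure D5:**
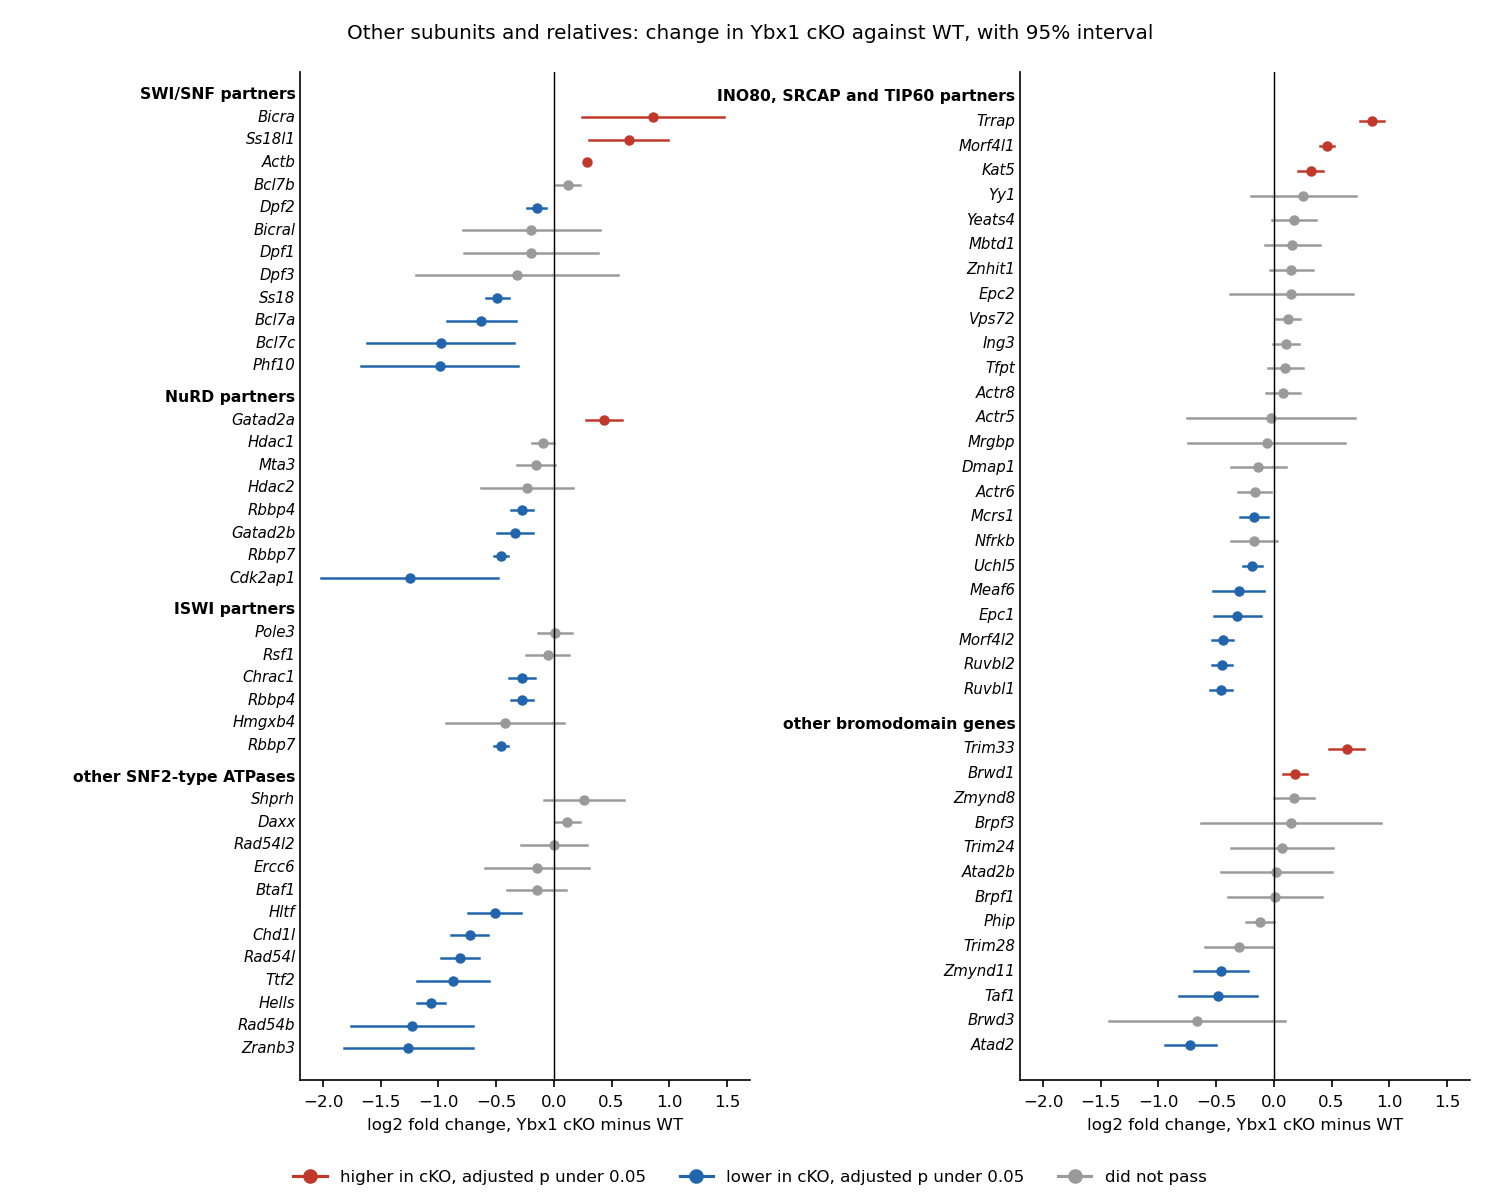
Log2 fold change (Ybx1 cKO minus WT) of 73 further subunits and relatives with the 95% interval; Rbbp4 and Rbbp7 appear in both the NuRD and the ISWI list. Among the other SNF2-type ATPases and partners, a list that includes Daxx, 7 of 12 were called lower, beside 4 of 8 NuRD and 3 of 6 ISWI partners. Trrap and Trim33 were among the genes called higher. Of all tested genes 17.8% were called lower and 19.5% higher.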

How the data were processed

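Per the labels' protocols, polyadenylated RNA was captured from Trizol extracts on oligo dT beads, fragmented and primed at random, and strandedness is not stated in the labels. The submitters' processing notes name GRCm38, and as tools DESeq2, featureCounts, HISAT2 2.1.0 and CASAVA, without their order or role. The deposited score per gene and library ran from -3.19 to 27.89 in a log unit whose base is unstated, and 0 value columns were left out. Noise between replicates was 1.31 (cKO) and 1.10 (WT) times Poisson noise if scores are log2 levels times 1.44, but 5.94 and 4.85 times if plain log2, so scores were multiplied by 0.693. Back-transformed levels summed to 12104617 and 12134026 in cKO libraries, and to 11157952 and 11074317 in WT libraries; as these are not counts, no counting interval is given. If scores are plain log2, all log2 fold changes are 1.44 times as large.

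As the values are on a log scale, limma 3.58.1 in R 4.3.3 was used (trend, two-sided, Benjamini-Hochberg, threshold 0.05), for the 15527 genes that reached a score of 1 in 2 or more libraries. Tables and plots were made with matplotlib 3.10.9, numpy 2.4.6 and pandas 2.3.3 in Python 3.11.15. The fit was run on simulated data with independent noise and far fewer changed genes than were called here. That run does not show how well the p-values are calibrated in these libraries. Genes and lists were chosen with earlier results of these data known. Named by rule were 8 ATPases (Smarca4, Smarca2, Smarca5, Chd4, Ino80, Srcap, Ep400, Atrx) in any case, the 8 largest called rises and falls, up to 2 called genes with the smallest p-values per role group and up to 3 per partner list; further genes are given to account for the other members, and 1 gene is not reported here. Positions and exon lengths come from GENCODE M21, with 1 entry for 60 of the 61 genes. Alternatives were other scalings, filters, prior variances, thresholds, a replicate block and leaving out each library.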

Additional observations from a re-analysis of the deposited data

How the results depend on the processing

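Of the 23 called remodellers 7 kept their call under all 13 alternative fits and 16 lost it in at least 1, and 0 changed direction. The fit with scores read as plain log2 is among the 13, but it only rescales the values and cannot start or end a call. With 1 common prior variance for genes of all levels, calls numbered 2267 for all genes (5803 as reported), 8 for remodellers (23) and 15 for partners (36). Without a filter on low values 14 remodellers were called. Asking also for a log2 fold change of at least 0.5, which lowers counts by construction, left 2732 genes, 5 remodellers and 16 partners. Leaving out 1 library gave 19 to 25 called remodellers, 28 to 39 partners and 4672 to 5810 genes. The labels do not say whether the replicate numbers pair the samples. The replicate differences of cKO and WT correlated at 0.01 across genes, which cannot settle whether samples were paired. With the replicate block 25 remodellers, 37 partners and 6026 genes were called, with Brd9 and Chd6 gained. Ybx1 passed in all of these fits. DESeq2 and other pseudocounts were not run, as the values are neither counts nor linear. For the weaker calls the cause of a loss was not tested. Depth is unknown, and below a log2 level of 7, where the median SE of remodellers was 0.21, small changes can go undetected.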
